A study of Homo sapiens with 12 samples.

Results

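The 10 extracellular matrix genes FN1, THBS1, THBS2, CCN1, CCN2, SPARC, TNC, POSTN, LOX and TGFBI were followed through an EU-seq experiment on MYC and CDK12. They were taken by name, with earlier results of these data known, and all 10 were found among the 23434 genes of the count table by their Entrez identifiers. EU-seq captures RNA that incorporated 5-ethynyl-uridine (EU) during a pulse, here of 2 h. The counts therefore follow RNA made in that time (newly made RNA) and not total RNA or protein. How much of it was processed or decayed within the pulse was not measured. The cells were U2OS, a human osteosarcoma line, expressing the MycER chimera, which was activated with 300 nM OHT (4-hydroxytamoxifen) for 40 h. They had been infected with virus carrying non-targeting shRNAs (shNT) or shRNA against CDK12 (shCDK12), a kinase that acts on elongating RNA polymerase II, and the shRNAs were switched on with 1 µg/mL doxycycline. The 4 groups were shNT, shNT_OHT, shCDK12 and shCDK12_OHT, with 3 libraries each. What all groups shared was MycER itself, an arrest in 100 ng/mL nocodazole for 8 h, shake-off of the arrested cells, a release of 12 h and 0.5 mM EU for the last 2 h. The labels do not name a clone, do not give the number of shRNAs in a group and do not say that replicates came from separate cultures, so p-values measure only the spread between these libraries, which may be technical. Because 10 µg of murine RNA was mixed with 40 µg of human RNA and only human genes are in the table, levels are relative to each library's human total. In bulk libraries such as these, fewer cells that make an RNA and less RNA per cell cannot be told apart.

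Matricellular proteins are secreted into the matrix, where they tune adhesion, growth factor activity and matrix assembly more than they bear load. Many of their genes respond to TGF-beta, whose receptors activate SMAD factors, and to YAP and TAZ, coactivators that enter the nucleus when the Hippo kinases are inactive and bind DNA through TEAD factors. CCN1 and CCN2 are immediate-early genes that are widely used as readouts of YAP and TAZ, while FN1, TGFBI and THBS1 are commonly induced by TGF-beta in mesenchymal cells.

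CDK12, the targeted gene, was called lower in the libraries labelled shCDK12 with OHT but not without it. EU-seq does not measure total CDK12 RNA or protein, so whether the shRNA lowered those cannot be read from these levels. Levels are given in CPM (counts scaled with TMM to library size), as mean ± SD over 3 libraries. CDK12 was at 304 ± 17.4 CPM in shNT, and the libraries labelled shCDK12 had 289 ± 10.9 CPM, a log2 fold change of -0.08 (standard error (SE) 0.084, adjusted p = 0.447, edgeR's quasi-likelihood test). With OHT it was at 397 ± 38.7 CPM in shNT_OHT and 214 ± 5.09 CPM in the libraries labelled shCDK12_OHT (log2 fold change -0.88, SE 0.11, adjusted p = 0.00011). Groups are therefore named as labelled, and each direction between shCDK12 and shNT given here rests on those labels. Library totals ran from 1251695 to 10447836 counts, 8.35-fold, and the shallowest library was shNT_OHT replicate 2. Of 9 mesenchymal and bone lineage markers, VIM, RUNX2, COL1A1 and CDH2 had at least 38 counts in every library, whereas TWIST1 had at most 2 counts and COL1A2 at most 5 in any library. Their summed level was 771 to 838 CPM in shNT, 634 to 649 CPM in shNT_OHT, 352 to 381 CPM in the libraries labelled shCDK12 and 413 to 424 CPM in those labelled shCDK12_OHT. The 6 epithelial markers summed to 10.7 to 16.4 CPM and the 6 blood cell markers to 4.68 to 12.4 CPM over all 12 libraries, with HBB at 0 or 1 counts. By group the blood cell sum was 4.68 to 7.52 CPM in shNT, 7.83 to 9.09 in shNT_OHT, 9.03 to 12.4 in shCDK12 and 10.6 to 12.1 in shCDK12_OHT. LCP1, its highest member, had means of 2.56, 5.53, 6.89 and 8.86 CPM in these groups, and its part was not tested. Among the epithelial markers EPCAM moved with the groups, at a mean of 0.82 CPM in shNT, 1.58 CPM in shNT_OHT, 8.03 CPM in shCDK12 and 2.64 CPM in shCDK12_OHT, and its part in the results below was not tested.

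The genes lie apart in the genome and differ widely in size (GRCh38, GENCODE 44). CCN1 on chromosome 1 (85580761 to 85584589) and CCN2 on chromosome 6 (131948176 to 131951372) span only 3.83 and 3.20 kb with 5 exons each, as short immediate-early genes do. FN1 on chromosome 2 (215360440 to 215436073) spans 75.6 kb and TNC on chromosome 9 (115019575 to 115118207) spans 98.6 kb. THBS1 lies on chromosome 15 (39581079 to 39599466), THBS2 on chromosome 6 (169215780 to 169254050) and POSTN on chromosome 13 (37562583 to 37598844). SPARC (151661096 to 151686975), LOX (122063195 to 122078413) and TGFBI (136028988 to 136063818) are all on chromosome 5 without being neighbours. The annotation places opposite-strand exons over parts of CCN2 (LINC01013, 278 bases), THBS1 (FSIP1, 448 bases, and THBS1-AS1, 411 bases), LOX (SRFBP1, 138 bases), SPARC (CLMAT3, 191 bases), TNC (DELEC1, 129 bases) and THBS2 (THBS2-AS1, 2249 bases). The kit was a stranded one, but the use of strand in counting is not given in the sources used here, so antisense reads in those stretches cannot be told apart from reads of the genes themselves.

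RefSeq promoters (GRCh38.p14) were matched for 9 of the 10 genes, all except CCN1, and the 250 bases before the start were searched on both strands for GGAATG, the core that TEAD factors bind, which 11.9% of all 35116 such windows contain. CCN2 held it at -169, -104 and -95 bases from the start, THBS1 at -46, THBS2 at -103 and -91, and SPARC at -17. The windows of CCN2 and THBS1 are shown with this core in capitals because they are the best expressed of the genes with a match. Those of FN1 and TGFBI are shown because these genes had the widest range of levels, and their windows contain no match.
CCN2 (chr6:131951373-131951622, minus strand): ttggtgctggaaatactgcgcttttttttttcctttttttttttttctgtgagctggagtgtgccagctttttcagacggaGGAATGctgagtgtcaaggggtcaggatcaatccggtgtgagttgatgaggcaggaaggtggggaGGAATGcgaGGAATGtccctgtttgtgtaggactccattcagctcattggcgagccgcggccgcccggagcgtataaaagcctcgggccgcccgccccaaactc
THBS1 (chr15:39580829-39581078, plus strand): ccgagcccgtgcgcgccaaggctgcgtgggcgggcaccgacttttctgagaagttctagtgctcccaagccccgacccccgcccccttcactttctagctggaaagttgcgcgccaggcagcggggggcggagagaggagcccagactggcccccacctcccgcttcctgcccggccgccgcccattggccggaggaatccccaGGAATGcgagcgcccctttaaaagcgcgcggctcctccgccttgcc
FN1 (chr2:215436069-215436318, minus strand): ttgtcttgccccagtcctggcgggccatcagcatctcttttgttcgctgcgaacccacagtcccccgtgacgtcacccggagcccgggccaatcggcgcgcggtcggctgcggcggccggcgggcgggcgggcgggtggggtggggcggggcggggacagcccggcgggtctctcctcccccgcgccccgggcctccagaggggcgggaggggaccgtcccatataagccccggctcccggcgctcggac
TGFBI (chr5:136028738-136028987, plus strand): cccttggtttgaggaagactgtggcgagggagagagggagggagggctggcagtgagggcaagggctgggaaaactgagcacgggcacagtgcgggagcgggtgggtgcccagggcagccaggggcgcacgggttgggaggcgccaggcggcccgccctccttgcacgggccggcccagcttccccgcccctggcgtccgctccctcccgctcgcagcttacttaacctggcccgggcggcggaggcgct
A match is a description of the letters and not a bound site. CAGAC, the box bound by SMAD factors, was found in CCN2, THBS1, THBS2, TNC, LOX and POSTN, against 38.0% of all windows, and neither FN1 nor TGFBI had it. TGANTCA, the AP-1 site, was found only in the POSTN window among the 9 genes (6.57% of all windows), CACGTG, the E-box that MYC and its partner MAX bind, in none of them (6.34%), and the CArG box of SRF in none of them (1.16%). TATAAA occurred in CCN2, THBS2 and POSTN, against 6.80% of all windows.

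Levels of the 10 genes differed by orders of magnitude, and 2 of them were close to silent. Per kb of the canonical transcript, the shNT libraries gave 2619 CPM for CCN1, 1613 CPM for CCN2 and 272 CPM for THBS1. They gave 220 CPM for TGFBI, 78.6 CPM for FN1, 53.5 CPM for SPARC, 11.3 CPM for LOX and 9.76 CPM for TNC. THBS2 was at 0.793 and POSTN at 0.0197 CPM per kb. By counts, CCN1 ranked 2nd among all genes in every library of shNT, shNT_OHT and shCDK12_OHT, and 4th or 5th in the libraries labelled shCDK12. Together the 10 genes held 1.31% to 1.40% of all counts in shNT, 1.19% to 1.40% in shNT_OHT, 0.602% to 0.643% in shCDK12 and 1.08% to 1.22% in shCDK12_OHT, so the libraries labelled shCDK12 lay well under the rest.

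**Figure D1:**
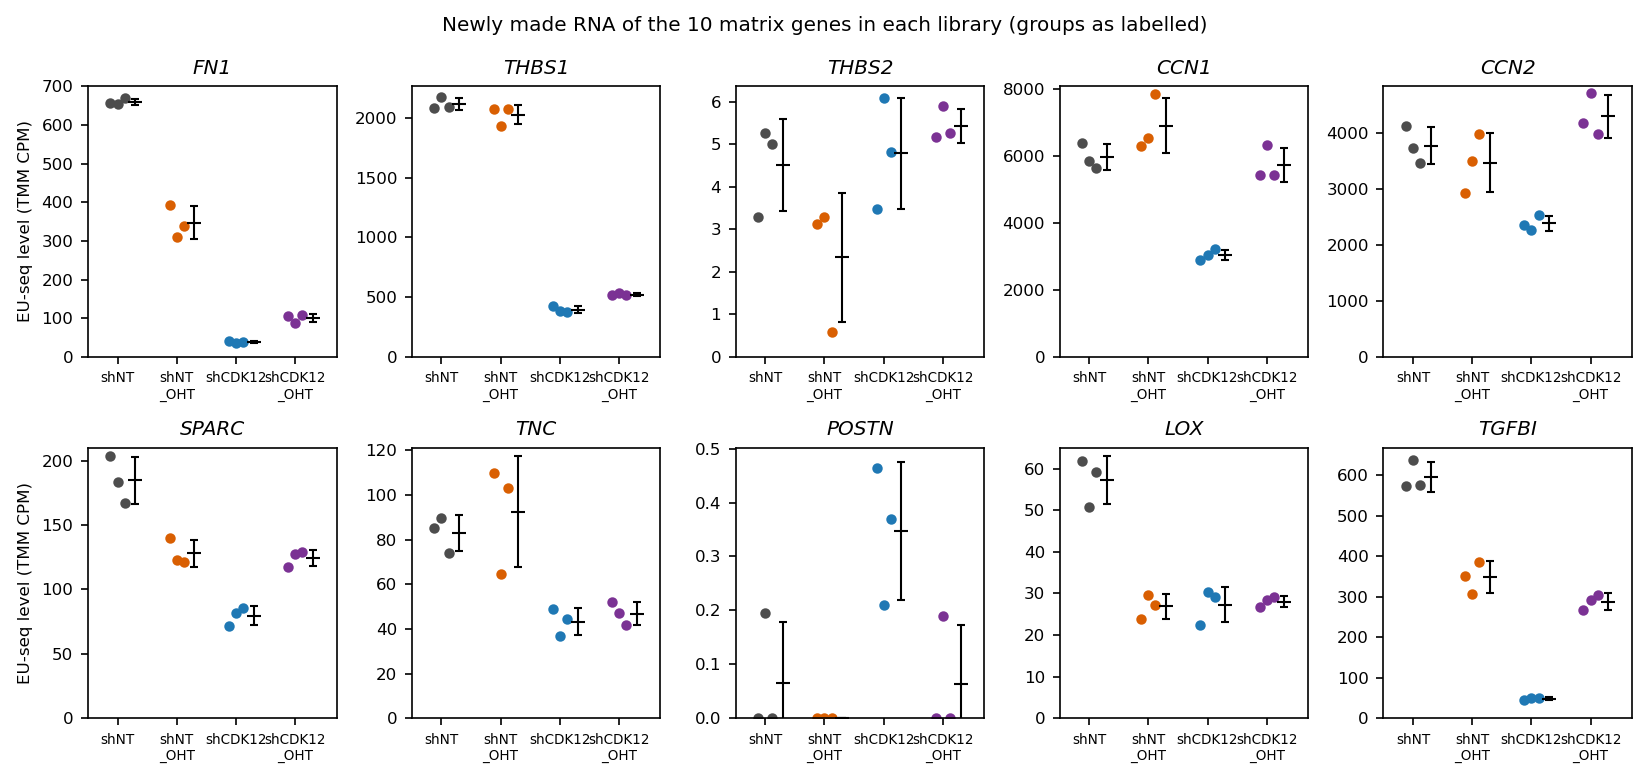
EU-seq level of each of the 10 genes (TMM-scaled CPM, linear axes from 0 that differ between panels) in the 3 libraries of each group, as coloured points in replicate order, with the mean and SD in black beside them. FN1, TGFBI, THBS1, CCN1, CCN2 and SPARC are lowest in the libraries labelled shCDK12, LOX is high only in shNT, and POSTN stays under 0.5 CPM.

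Among the adhesive proteins, FN1 encodes fibronectin, the glycoprotein whose fibrils cells assemble and grip through integrins. Its level was 656, 653 and 669 CPM in the 3 shNT libraries (replicates 1 to 3, as in all such series of values here) and 393, 310 and 338 CPM in shNT_OHT. It was 41.0, 35.2 and 38.5 CPM in the libraries labelled shCDK12 and 104, 88.1 and 108 CPM in those labelled shCDK12_OHT. No libraries of different groups overlapped, and the group means covered a 17.3-fold range, the widest of the genes that reached 1 CPM. TGFBI encodes a secreted adaptor that links collagens to integrins and is named for its induction by TGF-beta. It was at 572, 639 and 575 CPM in shNT, 352, 308 and 386 CPM in shNT_OHT, 45.6, 49.5 and 50.9 CPM in shCDK12 and 266, 293 and 305 CPM in shCDK12_OHT. The order of the groups was the same as for FN1 and again free of overlap, but shCDK12_OHT lay close under shNT_OHT (288 ± 20.0 against 348 ± 39.4 CPM) and not close to shCDK12. Within libraries, the ratio of FN1 to TGFBI counts was 1.02 to 1.16 in shNT, 0.875 to 1.12 in shNT_OHT, 0.710 to 0.898 in shCDK12 and 0.301 to 0.392 in shCDK12_OHT.

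Of the thrombospondins, THBS1 encodes a trimeric glycoprotein that can release TGF-beta from its latent complex. It was at 2085, 2179 and 2092 CPM in shNT and 2074, 1934 and 2078 CPM in shNT_OHT, ranges that all but touched. It was at 429, 383 and 373 CPM in shCDK12 and 517, 532 and 516 CPM in shCDK12_OHT, so every library labelled shCDK12, with or without OHT, lay far under every shNT library. THBS2 encodes the related thrombospondin-2, which binds and clears matrix proteases. It had 2 to 62 counts per library, which corresponded to 3.13 to 6.09 CPM in 11 libraries and 0.580 CPM in shNT_OHT replicate 3. Groups next to each other in order overlapped, and shNT_OHT lay below both groups labelled shCDK12, with means of 4.52 ± 1.08, 2.34 ± 1.52, 4.79 ± 1.31 and 5.44 ± 0.398 CPM in shNT, shNT_OHT, shCDK12 and shCDK12_OHT (SD, n = 3).

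The CCN genes encode small modular proteins that bind integrins and growth factors. CCN1 was at 6400, 5848 and 5651 CPM in shNT, 6309, 6554 and 7846 CPM in shNT_OHT and 5449, 6322 and 5421 CPM in shCDK12_OHT, and these 3 groups are neighbours in order whose libraries overlapped from one to the next. The libraries labelled shCDK12 lay below all others at 2900, 3039 and 3208 CPM. CCN2 was likewise lowest in the libraries labelled shCDK12. By mean, CCN1 was highest in shNT_OHT and CCN2 in shCDK12_OHT, each overlapping shNT as the next group in order. CCN2 was at 4118, 3730 and 3464 CPM in shNT, 2925, 3504 and 3979 CPM in shNT_OHT, 4178, 4715 and 3989 CPM in shCDK12_OHT and 2357, 2273 and 2528 CPM in shCDK12. The balance between the pair moved: within libraries the ratio of CCN1 to CCN2 counts was 1.58 ± 0.041 in shNT, 2.00 ± 0.15 in shNT_OHT, 1.28 ± 0.054 in shCDK12 and 1.33 ± 0.028 in shCDK12_OHT (SD, n = 3).

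SPARC encodes osteonectin, a collagen-binding protein abundant in bone. It was at 204, 184 and 167 CPM in shNT, 140, 123 and 121 CPM in shNT_OHT, 71.3, 82.0 and 85.9 CPM in shCDK12 and 117, 127 and 129 CPM in shCDK12_OHT. The groups treated with OHT overlapped each other and lay between the other groups. TNC encodes tenascin-C, a large anti-adhesive glycoprotein of wounds and tumour stroma. It was at 85.0, 89.6 and 74.2 CPM in shNT, 110.0, 64.3 and 103 CPM in shNT_OHT, 48.9, 36.7 and 44.2 CPM in shCDK12 and 51.9, 47.0 and 41.5 CPM in shCDK12_OHT. Every library labelled shCDK12, with or without OHT, was under every shNT library, and the lowest shNT_OHT value was that of the shallowest library. POSTN encodes periostin, which supports collagen crosslinking in bone and stroma, and had 9 counts in all 12 libraries, at most 2 in any of them. Its level is at or under the floor of 3 counts per library (0.287 to 2.40 CPM, depending on depth, a limit that covers counting error only), so no fold is given.

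LOX encodes lysyl oxidase, the enzyme that starts the crosslinking of collagen and elastin. It was at 61.8, 50.7 and 59.1 CPM in shNT, against 23.8, 29.7 and 27.3 CPM in shNT_OHT, 22.5, 30.3 and 29.1 CPM in shCDK12 and 26.6, 28.4 and 29.0 CPM in shCDK12_OHT. The shNT libraries thus stood alone, and the other 3 groups overlapped with means between 26.9 and 28.0 CPM.

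The first comparison asked how the libraries labelled shCDK12 differed from shNT without OHT. FN1 had the largest fall at 17.4-fold, followed by TGFBI at 12.2-fold and THBS1 at 5.38-fold, while SPARC, LOX, CCN1, TNC and CCN2 were between 1.58-fold and 2.32-fold lower. Of the 10 genes, 8 passed the filter on low counts (a mean normalized count above 32), and of these 8 were lower and 0 higher at an adjusted p under 0.05. The background among 11718 genes tested was 32.4% lower and 29.6% higher. The log2 fold change was -4.12 for FN1 (SE 0.097, adjusted p = 9.79e-21, edgeR's quasi-likelihood test), the 8th lowest of all genes tested, and -3.61 for TGFBI (SE 0.093, adjusted p = 2.26e-20), the 19th lowest. THBS1 had -2.43 (SE 0.077, adjusted p = 1.58e-18 in the same edgeR fit). The smaller falls were -1.22 for SPARC (SE 0.10), -1.05 for LOX (SE 0.15), -0.97 for CCN1 (SE 0.067), -0.96 for TNC (SE 0.13) and -0.66 for CCN2 (SE 0.071), with adjusted p-values in edgeR of 2.16e-06 or less. The count of higher genes was also 0 at an unadjusted p under 0.05 and with DESeq2. The median of the 8 genes was -1.13 and that of all genes tested -0.03 on the log2 scale. From the largest fall to the smallest, the genes span 75.6 kb (FN1), 34.8 kb (TGFBI), 18.4 kb (THBS1), 25.9 kb (SPARC), 15.2 kb (LOX), 3.83 kb (CCN1), 98.6 kb (TNC) and 3.20 kb (CCN2). A link between size and fall was not tested. The mesenchymal marker sum moved the same way, from 771 to 838 CPM in shNT down to 352 to 381 CPM, and 4 of the 5 markers tested were lower. Its part in these falls was not tested.

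With OHT in both groups, the libraries labelled shCDK12_OHT against shNT_OHT showed falls in THBS1, FN1 and TNC alone. THBS1 was 3.84-fold lower, FN1 3.44-fold and TNC 1.99-fold, while CCN2 was 1.25-fold higher. Among the 8 genes tested 3 were lower and 1 higher, against 21.6% lower and 23.8% higher among 11668 genes. The log2 fold changes were -1.94 for THBS1 (SE 0.086, adjusted p = 1.02e-06), -1.78 for FN1 (SE 0.13, adjusted p = 6.27e-06) and -0.99 for TNC (SE 0.18, adjusted p = 0.0014) in edgeR. CCN2 had 0.33 (SE 0.11, adjusted p = 0.0365, edgeR). This call was lost with DESeq2 (adjusted p = 0.0625), with upper-quartile normalization (0.0576) and without shNT_OHT replicate 1 (0.0961), shNT_OHT replicate 2 (0.0797) or shCDK12_OHT replicate 1 (0.0817), 2 (0.143) or 3 (0.0578). CCN1 at -0.25 (SE 0.10, adjusted p = 0.065) and TGFBI at -0.26 (SE 0.11, adjusted p = 0.0798) did not pass in edgeR. Both were called lower by DESeq2 (adjusted p = 0.0252 and 0.0296), with upper-quartile normalization (0.027 and 0.0396), and without shNT_OHT replicate 1 (0.0126 and 0.0286) or replicate 2 (0.0332 and 0.013). SPARC (-0.03, SE 0.12) and LOX (0.10, SE 0.18) had the smallest differences. THBS2 did not pass the filter here, and with no filter it was called higher at 1.39 (SE 0.52, adjusted p = 0.0449, edgeR), a call that was absent with a minimum of 10 (adjusted p = 0.0535). The mesenchymal marker sum was 634 to 649 CPM in shNT_OHT and 413 to 424 CPM in shCDK12_OHT, and its part was again not tested.

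**Figure D2:**
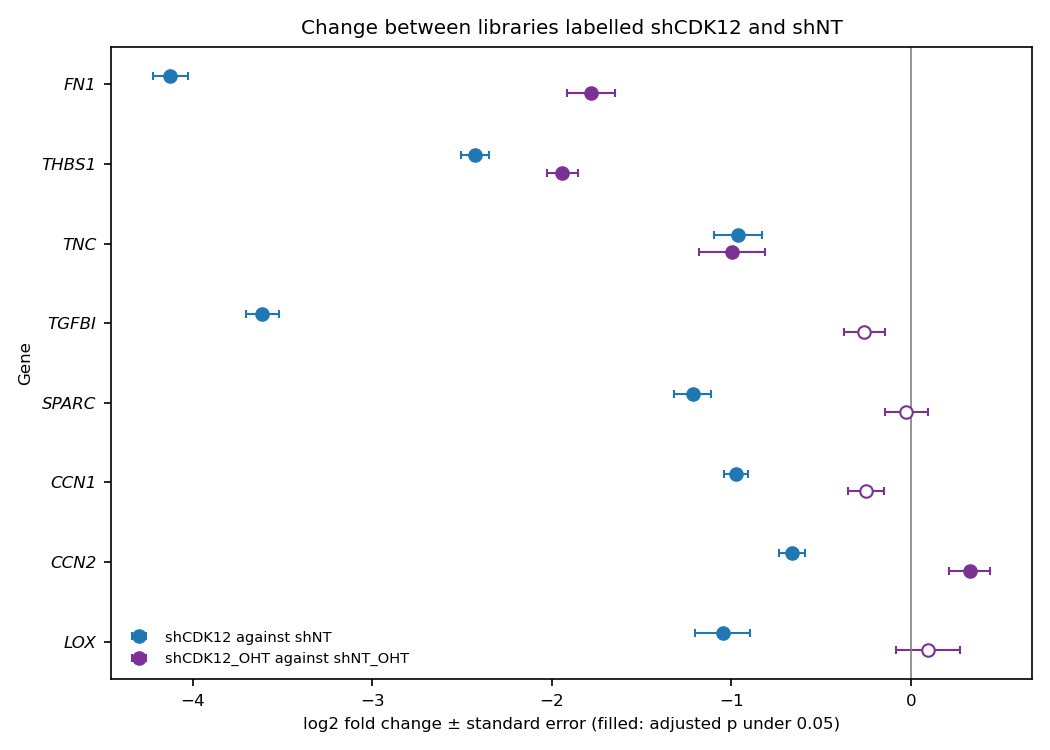
Log2 fold change (points) with its standard error (bars) of the 8 tested genes between libraries labelled shCDK12 and shNT, without OHT (blue) and with OHT in both groups (purple), where filled points have an adjusted p under 0.05. All 8 blue points lie left of 0, at -4.12 for FN1 and -0.66 for CCN2 at the extremes, while among the purple points only THBS1, FN1, TNC and CCN2 are filled.

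Upon activation of MycER in the shNT background 4 of these genes were lower and none of those tested was higher. LOX fell 2.15-fold, FN1 1.90-fold, TGFBI 1.71-fold and SPARC 1.44-fold, while THBS1, CCN1, CCN2 and TNC did not pass the test. Of the 8 genes tested 4 were lower and 0 higher, against a background of 8.29% lower and 9.05% higher among 10272 genes. The log2 fold changes were -1.11 for LOX (SE 0.20, adjusted p = 0.00203), -0.92 for FN1 (SE 0.11, adjusted p = 0.000135), -0.77 for TGFBI (SE 0.11, adjusted p = 0.000522) and -0.53 for SPARC (SE 0.13, adjusted p = 0.0139) in edgeR's quasi-likelihood test. The call of SPARC was lost without shNT replicate 1 (adjusted p = 0.1), shNT replicate 2 (0.0653) or shNT_OHT replicate 3 (0.0796), and with all libraries thinned to equal depth (0.0581). CCN1 was at 0.21 (SE 0.092), which passed an unadjusted p of 0.05 only (adjusted p = 0.134, edgeR). It was called higher without shNT_OHT replicate 1 (adjusted p = 0.011) or replicate 2 (0.0419). DESeq2 also called 0 genes higher. THBS1 (-0.07, SE 0.086), CCN2 (-0.12, SE 0.11) and TNC (0.18, SE 0.18) were not called in any alternative run. The median was -0.33 over the 8 genes and -0.03 over all genes tested. The mesenchymal marker sum was also lower with OHT (634 to 649 against 771 to 838 CPM), and its part was not tested.

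In the libraries labelled shCDK12, FN1, TGFBI and SPARC, which were lower upon OHT in shNT, were higher upon OHT, and CCN1, CCN2 and THBS1 were higher as well. TGFBI rose 5.90-fold, FN1 2.63-fold, CCN1 1.88-fold, CCN2 1.80-fold, SPARC 1.56-fold and THBS1 1.32-fold. THBS2 passed the filter in this comparison alone, so 9 of the 10 genes were tested, of which 6 were higher and 0 lower, against 27.5% higher and 21.5% lower among 12519 genes. TGFBI had a log2 fold change of 2.56 (SE 0.09, adjusted p = 7.23e-13, edgeR), the 4th highest of all genes tested. FN1 had 1.39 (SE 0.11, adjusted p = 1.62e-08), CCN1 0.91 (SE 0.078, adjusted p = 5.40e-08) and CCN2 0.85 (SE 0.078, adjusted p = 1.19e-07) in the same edgeR fit. For SPARC it was 0.64 (SE 0.093, adjusted p = 2.09e-05) and for THBS1 0.40 (SE 0.075, adjusted p = 0.000243), again by edgeR. These calls held in every alternative run. TNC (0.13, SE 0.13), LOX (0.02, SE 0.14) and THBS2 (0.13, SE 0.26) did not pass, none of them at an unadjusted p under 0.05, and the sign of LOX turned with DESeq2, upper-quartile normalization and thinning. DESeq2 called 0 genes lower as well. The median of the 9 genes was 0.64 and that of all genes tested 0.05. The mesenchymal marker sum was 352 to 381 CPM without OHT and 413 to 424 CPM with it, and its part was not tested.

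**Figure D3:**
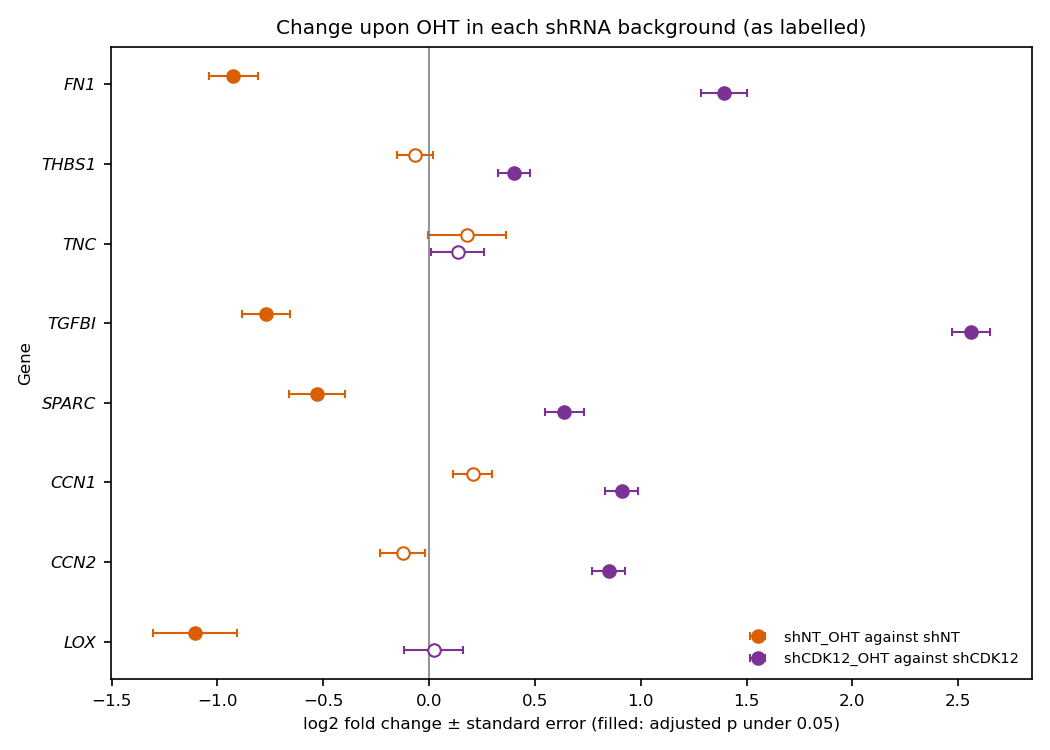
Log2 fold change (points) with its standard error (bars) of the 8 genes tested in both backgrounds upon OHT, in shNT (orange) and in the libraries labelled shCDK12 (purple), where filled points have an adjusted p under 0.05. FN1, TGFBI and SPARC are filled on opposite sides of 0, and the pair of points is farthest apart for TGFBI, at -0.77 and 2.56.

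The difference between both OHT responses was tested in 1 fit of all 12 libraries. Of the 8 genes tested 7 had a higher OHT response in the libraries labelled shCDK12 and 0 a lower one, against 25.6% higher and 19.6% lower among 11699 genes. The difference in log2 fold change was 3.33 for TGFBI (SE 0.15, adjusted p = 1.85e-12), the 13th highest of all genes, and 2.31 for FN1 (SE 0.16, adjusted p = 7.78e-10) in edgeR. It was 1.17 for SPARC (SE 0.16), 1.13 for LOX (SE 0.23), 0.97 for CCN2 (SE 0.15), 0.70 for CCN1 (SE 0.13) and 0.46 for THBS1 (SE 0.11), with adjusted p-values of at most 0.00255 (edgeR). TNC, at -0.06 (SE 0.23, adjusted p = 0.858, edgeR), was the exception. The 0 lower calls held at an unadjusted p under 0.05 and with DESeq2. The median over all genes was 0.10 with TMM and -0.02 with upper-quartile normalization, so about 0.12 of each value depends on the scaling. The 7 calls held in every alternative run. All 4 comparisons above draw on libraries of this fit, and those that share a group share its libraries, so their values are not independent of each other.

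The genes that start and carry the signals were less uniform. Counts of each list are to be read against the shares of all genes called, which were 8.29% lower and 9.05% higher upon OHT in shNT, 21.5% lower and 27.5% higher upon OHT in shCDK12, 32.4% lower and 29.6% higher in shCDK12 against shNT, and 21.6% lower and 23.8% higher in shCDK12_OHT against shNT_OHT. Of 19 ligands, latency proteins and receptors of the TGF-beta family, 17 were tested. In the libraries labelled shCDK12 against shNT, 10 were lower and 5 higher, the higher ones near the 29.6% of all genes. Their median change was -0.81 on the log2 scale, and that of all genes -0.03. LTBP2, a latent TGF-beta binding protein, fell 14.9-fold (355 ± 14.5 to 24.0 ± 1.07 CPM) and INHBA, the activin A subunit, 6.41-fold (667 ± 78.9 to 105 ± 7.13 CPM), while the coreceptor TGFBR3 rose 2.32-fold and the activin receptor ACVR1B 1.53-fold. Upon OHT in those libraries 10 were higher and 2 lower (median 0.46 against 0.05), with INHBA 2.62-fold and LTBP2 2.13-fold higher. Upon OHT in shNT, 2 were lower, LTBP2 (1.75-fold) and the receptor ACVR2B (1.74-fold), and 1 higher, the coreceptor ENG (1.78-fold, adjusted p = 0.0397 in edgeR), counts near the 8.29% and 9.05% of all genes. The call of ENG was lost with the replicate block and in 5 of the 6 fits that left out 1 library. In shCDK12_OHT against shNT_OHT, 7 were higher and 6 lower, among them ACVR2B (2.28-fold higher) and LTBP2 (3.93-fold lower).

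Of 20 genes known to respond to TGF-beta, the lists of called genes ran both ways in each comparison. In the libraries labelled shCDK12 against shNT 11 were lower and 6 higher of 20 tested, the higher ones near the 29.6% of all genes, and the median log2 change of the list was -0.74. PMEPA1, a feedback inhibitor of SMAD signalling, fell 12.0-fold (775 ± 9.34 to 64.7 ± 1.40 CPM), whereas BAMBI, a decoy receptor, rose 6.78-fold (21.9 ± 3.28 to 145 ± 15.2 CPM) and ID3, an inhibitor of bHLH factors that BMP signals induce, 3.48-fold. Upon OHT in those libraries 9 were higher and 3 lower of 18 tested, led by PMEPA1 (4.60-fold higher), with BAMBI 2.48-fold and TGIF1, a SMAD corepressor, 2.07-fold lower. Upon OHT in shNT 7 were lower and 6 higher of 20 tested, with PMEPA1 1.81-fold lower and TAGLN, an actin-binding protein of smooth muscle, 2.28-fold higher. In shCDK12_OHT against shNT_OHT 9 were lower and 6 higher, with TAGLN 4.24-fold lower and ID2 3.29-fold higher.

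The Hippo kinases, adaptors and TEAD factors changed mostly in 1 direction per comparison. All 23 genes of this list were tested. Upon OHT in shNT 9 were lower and 0 higher (0 also at an unadjusted p under 0.05 and with DESeq2), against 8.29% and 9.05% of all genes, and the median log2 change was -0.44. The TEAD family member TEAD2 was 2.51-fold lower and VGLL4, a cofactor that competes with YAP, 1.80-fold lower. In the libraries labelled shCDK12 against shNT 13 were lower and 3 higher, with WWTR1, which encodes TAZ, 2.84-fold lower (124 ± 6.51 to 43.8 ± 2.10 CPM). Upon OHT in those libraries 15 were higher and 0 lower in edgeR, against 11 higher with DESeq2 and 11 higher and 1 lower with upper-quartile normalization. TEAD2 was 2.33-fold and VGLL3 2.03-fold higher there. In shCDK12_OHT against shNT_OHT 11 were higher and 3 lower, with TEAD2 2.47-fold and the kinase adaptor MOB1A 2.03-fold higher, and NF2, an upstream activator of the kinases, 1.75-fold lower.

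Of 20 YAP and TAZ target genes other than CCN1 and CCN2, 18 were tested, and 3 of the list (AMOTL2, LATS2 and PTPN14) are also in the Hippo list. In the libraries labelled shCDK12 against shNT 12 were lower and 3 higher (median log2 fold change -0.90), with the receptor kinase AXL 7.22-fold lower (455 ± 16.8 to 63.3 ± 3.40 CPM) and F3, tissue factor, 6.93-fold lower. Upon OHT in those libraries 13 were higher and 2 lower (median 0.51), led by ANKRD1, a stress-inducible nuclear cofactor, at 3.04-fold (577 ± 67.6 to 1755 ± 170 CPM). Upon OHT in shNT 5 were lower and 2 higher, with RBMS3, an RNA-binding protein, 2.38-fold lower. The higher genes, NUAK2 and FJX1, had adjusted p-values of 0.0405 and 0.0383 in edgeR. Both calls were lost without shNT replicate 1, without shNT replicate 2 or without shNT_OHT replicate 3, and that of NUAK2 also without shNT replicate 3, at adjusted p-values from 0.0939 to 0.198. That of NUAK2 was also lost with the replicate block (0.0664), with no filter (0.0662) and after thinning (0.161), and that of FJX1 after thinning (0.0921). In shCDK12_OHT against shNT_OHT 5 were lower and 1 higher, against 21.6% and 23.8% of all genes, with AXL (2.46-fold) and F3 (2.04-fold) the lowest.

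**Figure D4:**
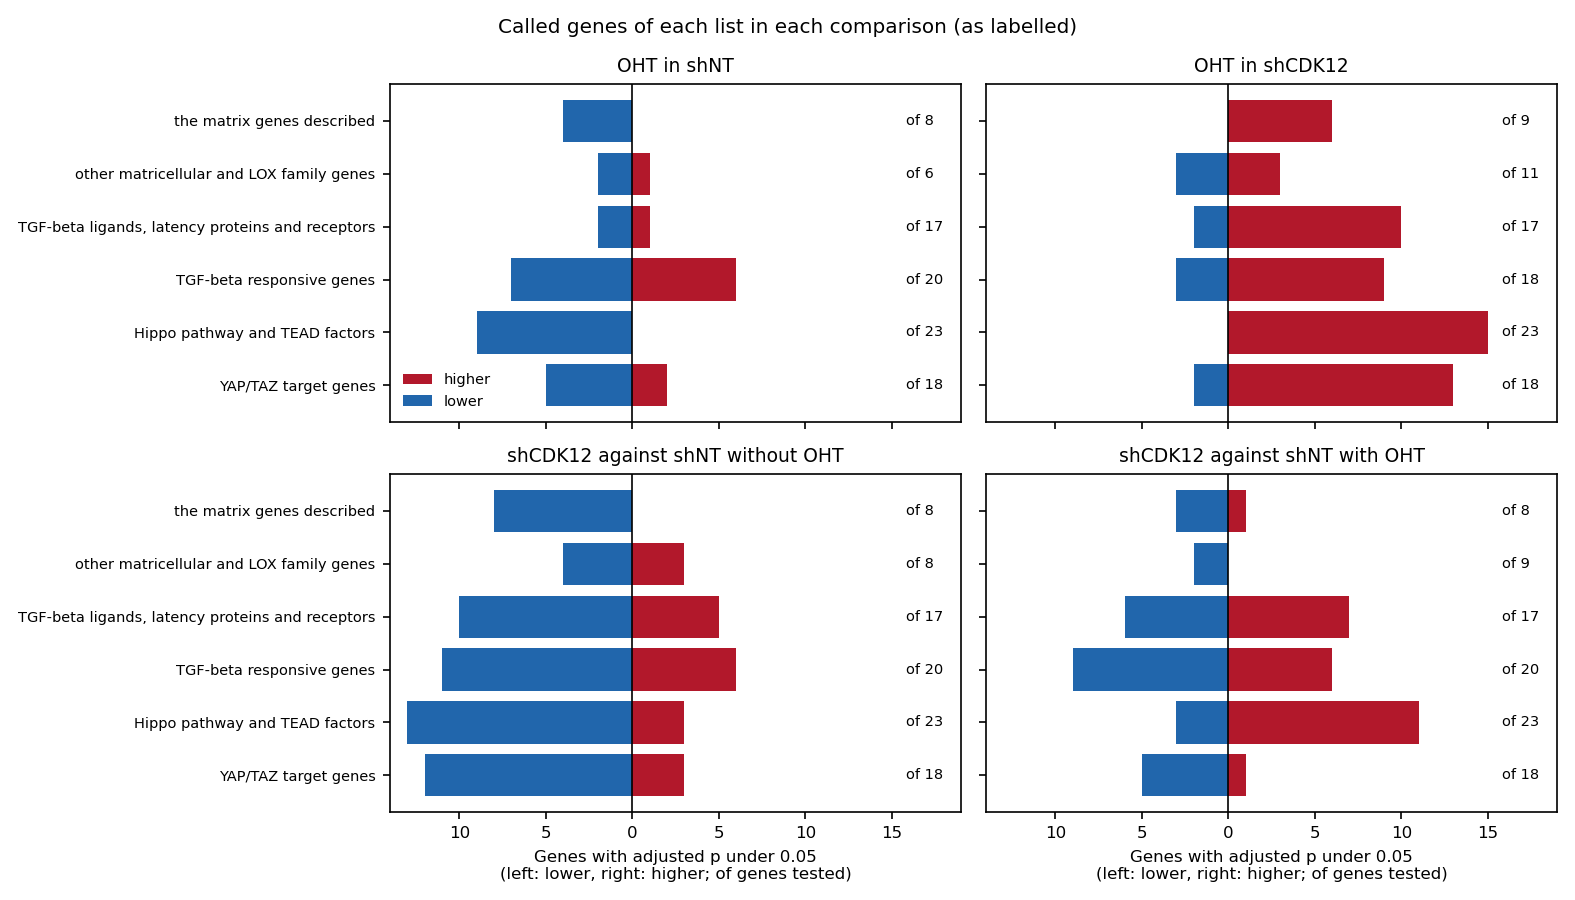
Number of genes with an adjusted p under 0.05 in each list, higher (red, to the right) and lower (blue, to the left), in the 4 comparisons, with the number tested at the right. Upon OHT the Hippo and TEAD list has 9 lower and 0 higher in shNT and 15 higher and 0 lower in the libraries labelled shCDK12, while the TGF-beta responsive genes run both ways in all 4 panels.

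Among 23 relatives of the genes described (other thrombospondins, CCN proteins, SPARC relatives, tenascins, fibulins, fibrillins and LOX-like enzymes), only 6 to 11 passed the filter in a comparison. LOXL4, a LOX-like enzyme, fell by 1.43 on the log2 scale upon OHT in shNT (376 ± 19.4 to 140 ± 15.6 CPM). It was 10.4-fold lower in the libraries labelled shCDK12 than in shNT (36.3 ± 3.69 CPM), and rose 3.49-fold upon OHT there (127 ± 7.16 CPM). CCN3, a family member of CCN1 and CCN2 often found to oppose CCN2, was called in the opposite direction in each of these 3 comparisons, at 26.1 ± 6.63, 53.8 ± 5.63, 99.6 ± 7.25 and 40.6 ± 2.84 CPM in shNT, shNT_OHT, shCDK12 and shCDK12_OHT. Of these genes 1 was higher and 2 lower of 6 tested upon OHT in shNT, 3 and 3 of 11 upon OHT in shCDK12 (27.5% higher and 21.5% lower over all genes), 3 and 4 of 8 in shCDK12 against shNT, and 0 and 2 of 9 in shCDK12_OHT against shNT_OHT. These numbers are small, and several are near the shares of all genes called. The 0 higher calls were also 0 at an unadjusted p under 0.05 and with DESeq2.

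The lists were also set against the difference between OHT responses, where the median over all genes was 0.10 and 25.6% of genes were called higher and 19.6% lower. The OHT response was higher in the libraries labelled shCDK12 for 14 and lower for 0 of 23 Hippo pathway genes (1 lower at an unadjusted p under 0.05 and 1 with DESeq2), and higher for 13 and lower for 3 of 18 YAP and TAZ targets. It was higher for 8 and lower for 1 of 17 TGF-beta ligands, latency proteins and receptors, 10 and 5 of 20 TGF-beta responsive genes, and 3 and 2 of 8 relatives of the genes described, of which the lower calls of the responsive genes and both counts of the relatives are near those shares. LTBP2 is in both TGF-beta lists, TGFB2 is in the ligand list and the YAP target list, and COL1A1 is both a TGF-beta responsive gene and a mesenchymal marker.

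Likeness of pattern was described with Pearson's r of log2(CPM + 1) over the 12 libraries, which share their depth and scaling, among 11699 genes. FN1 was closest to COL6A3 (r = 0.996), a collagen VI chain, and LTBP2 (0.996), and TGFBI was close to the pseudogene HNRNPA1P33 (0.992). THBS1 was closest to VCL (0.996), which encodes the adhesion protein vinculin, and the histone gene H2BC4 (0.993). SPARC was closest to LOXL4 (0.983) and TNFAIP2 (0.978), CCN1 to CTTNBP2NL (0.975) and RHOC (0.966), and CCN2 to PDK2 (0.948) and ARID5B (0.947). TNC was closest to DLST (0.978) and H4C2 (0.975), and LOX was close to ARRDC3 (0.939). Among the genes described, r was 0.962 for FN1 with THBS1, 0.942 for SPARC with TGFBI and 0.836 for CCN1 with CCN2, and lowest for LOX with CCN1 (0.273).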

How the data were processed

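The authors deposited 1 table of raw counts per gene for 12 EU-seq libraries. The submitters' processing notes list STAR 2.7.5c, featureCounts 1.4.5-p1 and hg19, and their settings, the use of strand and the handling of murine reads are not given in the sources used here. Symbols were taken from RefSeq by Entrez identifier for 23284 of 23434 genes, and the other 150 stayed in the tests. Counts were scaled with TMM and tested with the quasi-likelihood test of edgeR 4.0.16 in R 4.3.3, in fits of the 6 libraries compared or, for the difference between OHT responses, of all 12, after removal of genes whose mean normalized count in the fit was 32 or less. P-values were adjusted over all genes tested (Benjamini-Hochberg) and called under 0.05. The code was tested on simulated data. Library totals of 1251695 to 10447836 counts set the precision of low genes.

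The alternatives were DESeq2 1.42.0, upper-quartile normalization, a minimum of 10 or no filter, the replicate number as a block, all 12 libraries in 1 fit, thinning to 1251695 counts and leaving out each library in turn. Positions come from GENCODE 44 on GRCh38 and promoter windows from RefSeq on GRCh38.p14, whereas the counts carry no coordinates. The genes described and the gene lists were chosen with earlier results of these data known. The genes named from each list are among the called genes with the 2 largest rises and the 2 largest falls per comparison, and those named for likeness are among the 2 with the highest r over 12 libraries (log2 of CPM with 1 added). A few genes that these rules pick are not reported here. Each printed window ends at the base before the RefSeq start. No column of the table was left out.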

Additional observations from a re-analysis of the deposited data

Results flagged for a closer look

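The response to OHT was called different between the shNT background and the libraries labelled shCDK12 in 7 of the 8 genes tested. The call was made on the interaction term of a fit of all 12 libraries (edgeR's quasi-likelihood test, adjusted over 11699 genes). All 7 responses were higher in the libraries labelled shCDK12, against 25.6% higher and 19.6% lower among those 11699 genes. As the OHT change in shCDK12 minus that in shNT on the log2 scale, the difference was 3.33 for TGFBI, 2.31 for FN1 and 1.17 for SPARC, which fell upon OHT in shNT and rose upon OHT in the libraries labelled shCDK12. It was 1.13 for LOX, which fell in shNT only, and 0.97 for CCN2, 0.70 for CCN1 and 0.46 for THBS1, which were called higher only in the libraries labelled shCDK12. Except for LOX, these genes had their lowest levels of the 4 groups in the libraries labelled shCDK12 without OHT. How many of all genes did so was not counted. The newly made RNA of CDK12 itself was not called lower in those libraries than in shNT, and its total RNA and protein were not measured here.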

How the results depend on the processing

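Of 41 results for the genes described, 30 kept their direction and their call under every alternative, 2 lost their call under some (SPARC upon OHT in shNT and CCN2 in shCDK12_OHT against shNT_OHT), 3 gained one (CCN1 upon OHT in shNT, and CCN1 and TGFBI in shCDK12_OHT against shNT_OHT), and 6 that were never called changed sign. Of 91 results for CDK12 and the genes named from lists, 74 kept both, 16 lost their call and 1, CDK12 in shCDK12 against shNT, changed sign with upper-quartile normalization (log2 fold change 0.015). LOX upon OHT in shCDK12 was at -0.030 with DESeq2, -0.040 with upper-quartile normalization and -0.18 after thinning, and the TNC interaction at 0.062 after thinning. Leaving out 1 library at a time gave -0.080 to 0.0015 for THBS1 upon OHT in shNT, -0.017 to 0.37 for THBS2 and -0.085 to 0.10 for LOX upon OHT in shCDK12, -0.099 to 0.032 for SPARC and -0.0025 to 0.12 for LOX in shCDK12_OHT against shNT_OHT, and -0.22 to 0.066 for the TNC interaction. Over all genes, 1782 calls upon OHT in shNT became 3256 with all 12 libraries in 1 fit and 670 to 2523 with 1 library left out, and 5298 in shCDK12_OHT against shNT_OHT became 3520 to 6238. Thinning, which leaves fewer genes to test, gave 3219 calls in place of 6128 upon OHT in shCDK12, 4483 in place of 7265 in shCDK12 against shNT, 3121 in place of 5298 in shCDK12_OHT against shNT_OHT and 3188 in place of 5289 in the interaction. Causes of the other shifts were not tested. Libraries with the same replicate number were not treated as paired in the main fits. The r of same-numbered deviations was -0.09 to 0.32, above 0.1 in 3 of 18 pairs. With different numbers it was -0.36 to 0.0998, above 0.1 in 0 of 36 pairs. With the replicate block the genes described gave 4 calls upon OHT in shNT, 6 upon OHT in shCDK12, 8 and 4 in shCDK12 against shNT without and with OHT, and 7 in the interaction, as without it. Depth limits THBS2 and POSTN, and the 8 genes tested in all 5 comparisons had at least 36 counts in every library.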
